A study of Mus musculus with 10 samples.

Results

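The genes described here are 36 components of the RAS-RAF-ERK cascade and of its regulators, read from bulk RNA-seq of mouse sarcomas. They were taken by symbol from the deposited count table with no cut on a measured value, although earlier results of these data were known when the list was chosen. The list holds 5 RAS GTPases, 4 RAF kinases and KSR scaffolds, 6 MEK, ERK and RSK kinases, 7 RAS exchange factors, 6 RAS GTPase-activating proteins (GAPs), 6 adaptors including the phosphatase SHP2, and 2 other regulators. All 36 were found among the 56750 features of the table, and all 36 passed the filter on low counts, beside 24743 genes tested in all. Tumors of 2 models were compared. The dFLEx CDS tumors (170019, 170024 and 170025; genotype dFLEx CDS +/-) expressed an HA-tagged CIC::DUX4 fusion from a CAG promoter in a construct targeted to Rosa26, which is put in frame only after both Cre and FLP recombination. In that model, plasmids encoding the recombinases (pCAG-Cre and pCAG-FLPE) are electroporated into hind limb muscle, so the cells that take them up set where tumors start. The KP tumors (3800 and 3802) were sarcomas of the KP model, in which both Trp53 alleles are floxed, and they carry no fusion construct. No drug treatment is given for these tumors in the labels, and neither the age of the animals nor the site of the KP tumors is given there. RNA of each tumor was divided into duplicates, and with 1 library of 3802 not analysed here, 9 libraries from 5 tumors were used, summed per tumor.

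RAS proteins are small GTPases that pass signals from growth factor receptors when bound to GTP. Exchange factors such as SOS load them with GTP, GAPs such as neurofibromin return them to the inactive state, and active RAS recruits RAF kinases, which phosphorylate MEK, which in turn phosphorylates ERK. CIC is a transcriptional repressor that ERK signaling inactivates, and fusion to DUX4 turns it into an activator, so genes usually found downstream of ERK can be driven by the fusion itself. The comparison therefore bears on whether the upstream cascade differed at the level of RNA between fusion-driven and KP sarcomas. RNA levels do not measure GTP loading or kinase phosphorylation, on which the cascade mainly runs.

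Tumor totals ran from 20503474 counts in 3802 to 82138251 in 170025. The CIC::DUX4 feature, the check of the labels, was at 105, 202 and 423 CPM (a count divided by the TMM-scaled library size of its tumor, as used for all levels here) in 170019, 170024 and 170025, at 0 counts in 3800 and at 6 counts in 3802. As a measure of counts in genes that such tumors should not use, 2007 olfactory and vomeronasal receptor genes gave 0.0238, 0.0150 and 0.00276 CPM per kilobase in the dFLEx tumors, 0.00624 in 3800 and 0.106 in 3802, which had the highest background. Marker genes of several cell types also differed. Summed over its list, the level of myocyte markers was 8168 to 32607 CPM in dFLEx and 1613 to 4070 CPM in KP tumors, whereas that of macrophage markers was 1152 to 1363 CPM in dFLEx and 2867 to 5720 CPM in KP tumors. Fibroblast markers summed to 1669 to 5660 CPM in dFLEx and 842 to 1163 CPM in KP tumors. Not every marker separated the groups: 6 of 9 myocyte and 4 of 6 fibroblast markers were higher, and 6 of 8 macrophage markers lower, in every dFLEx tumor. Myh1, Myh2, Ttn, Cd68, Mrc1, Pdgfra and Dcn overlapped. Col1a1 was the largest fibroblast term in each dFLEx tumor, at 893 to 5105 CPM, whereas Dcn was highest in 3802, at 566 CPM. The part of cell composition in the values below was not tested, and in bulk tissue fewer cells of a type and less RNA per cell cannot be told apart. The 6 proliferation markers summed to 577 to 944 CPM in dFLEx and 295 to 960 CPM in KP tumors, and none of the 6 separated the groups.

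CIC binds DNA octamers of the forms TGAATGAA, TCAATGAA, TGAATGGA and TCAATGGA, so the promoters of the 36 genes were searched for these on both strands. RefSeq windows (250 bases before to 50 after an annotated start; GRCm38.p6) matched 32 of the 36 genes. An octamer lay in the window of 2 of the 32 (6.25%), Rasgrp3 and Grb2, against 4.45% of 27025 genes with a window. In a list of 17 ERK output genes, 4 of the 11 with a window held one (36.4%: Dusp6, Epha2, Spred3 and Spry2). That list was made of genes known to follow ERK signaling or to be CIC targets, so its share is no independent contrast to that of the members. The 100 bases before the start are printed for both members with a match and, for comparison, for Spred3, which encodes a RAS pathway inhibitor; capitals mark the octamer as it reads on the printed strand, and coordinates are the single exact match of each sequence in GRCm39.
Rasgrp3, chr17:75742800-75742899, plus strand: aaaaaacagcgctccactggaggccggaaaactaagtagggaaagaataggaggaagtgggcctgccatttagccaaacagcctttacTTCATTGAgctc
Grb2, chr11:115590755-115590854, minus strand: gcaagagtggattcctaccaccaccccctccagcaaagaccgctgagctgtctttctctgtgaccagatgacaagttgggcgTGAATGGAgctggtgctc
Spred3, chr7:28868073-28868172, minus strand: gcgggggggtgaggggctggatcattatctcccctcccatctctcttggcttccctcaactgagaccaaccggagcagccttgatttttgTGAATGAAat
The octamer of Rasgrp3 begins 12 bases before the RefSeq start and reads TCAATGAA on the other strand, and 9 bases of that window lie in exon sequence of the count table. The window of Grb2 lies inside the gene as the count table draws it, outside its exons, since RefSeq places a start there, and its TGAATGGA begins 18 bases before that start. A match to these letters is a description of the sequence and shows no binding.

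None of the 36 genes passed the test between the models. With edgeR's quasi-likelihood test on tumor sums, the adjusted p of the members ran from 0.264 to 0.990, whereas 45 of the 24743 genes tested were called (0.182%). At an unadjusted p under 0.05 there were 3 members (8.33%), Rasgrf1, Rasgrp1 and Rasa1, all lower in dFLEx, against 10.6% of all genes. DESeq2 on the same sums called Rasa1 and Rasgrf1 (5.56% of the members, against 6.13% of all genes), and limma-voom on the 9 libraries, in which tumor was a random term, called Rasa1 (2.78%, against 2.78%). When the 9 libraries were treated as independent samples, which counts the duplicates of a tumor as replicates, edgeR called 6 members (16.7%, against 17.1% of all genes) and DESeq2 called 12 (33.3%, against 25.8%). Levels of the 3 dFLEx tumors lay above both KP tumors in 3 members (8.33%, against 13.7% of all genes) and below both in 6 (16.7%, against 11.7%), and they overlapped in 27. The median log2 fold change of the members (dFLEx against KP) was -0.22, beside -0.18 over all genes tested, with 15 members higher and 21 lower in the fit.

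**Figure D1:**
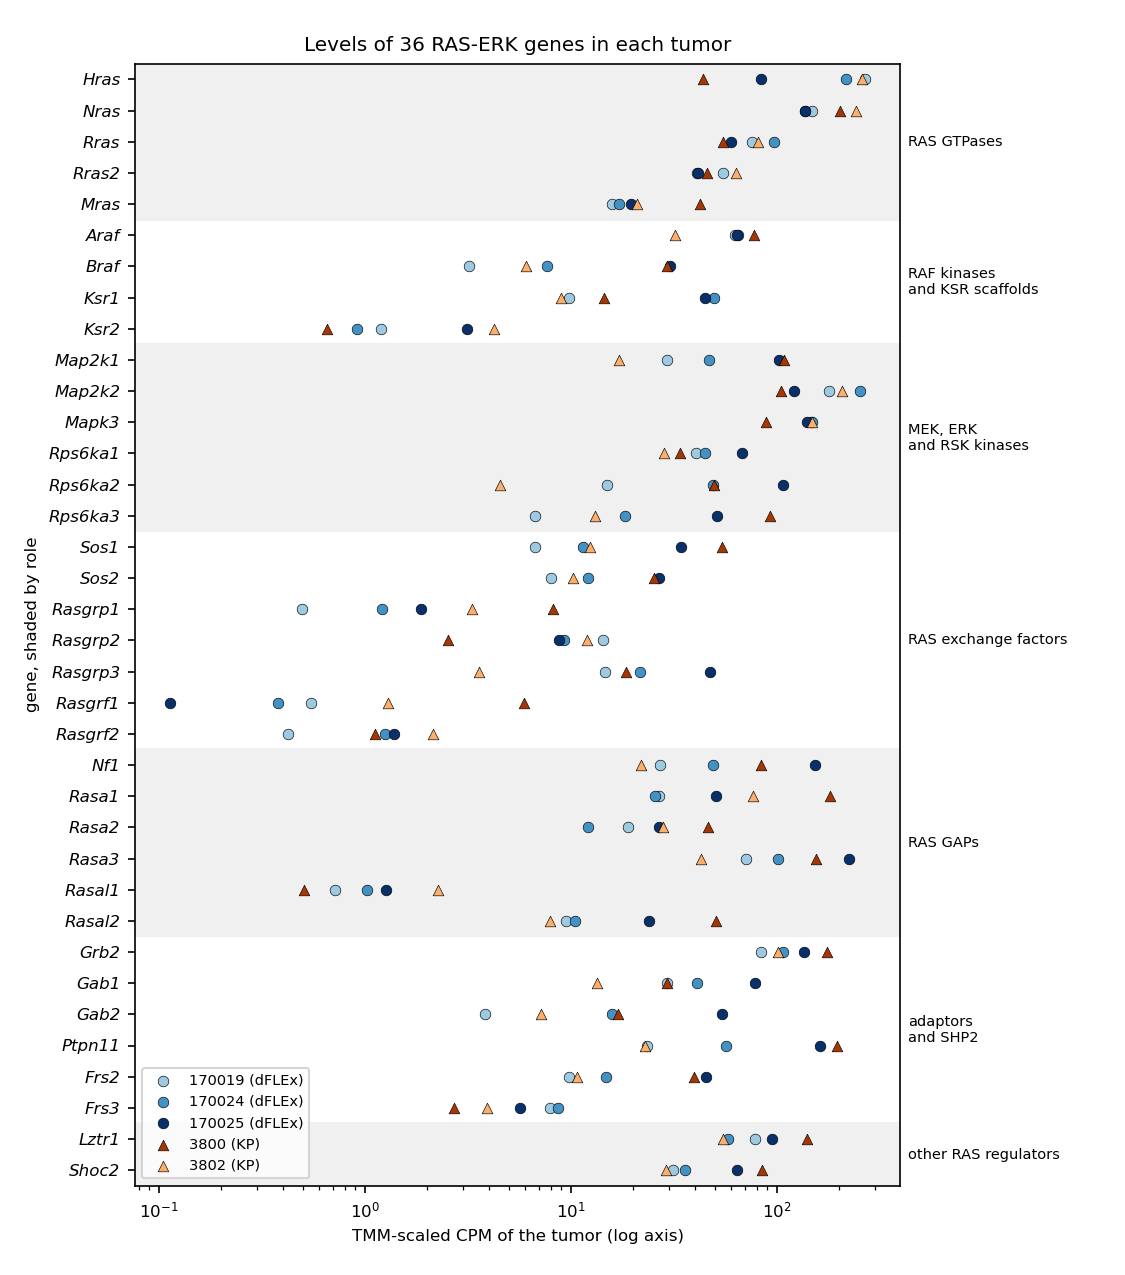
Level of each of the 36 genes (rows, grouped by role) in each tumor, as TMM-scaled CPM on a log axis; circles are dFLEx tumors and triangles are KP tumors. In most rows the circles and triangles are interleaved, while Rasgrf1, Rasgrp1 and Rasa1 show both triangles to the right of all circles.

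The precision of these differences was low. The standard error (SE) of a member's log2 fold change was 0.50 to 1.12, and no member had a 95% interval lying wholly within 2-fold in either direction. In 22 of the 36 members the log2 fold change was smaller than its SE (61.1%, against 60.4% of all genes). A difference of 2-fold between the models was therefore not detectable for any single member at this number of tumors, and a missing call does not show that levels were alike. Duplicates of 1 tumor were far closer to each other: over members with at least 50 counts in a tumor, their median fold difference was 1.04 to 1.10.

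**Figure D2:**
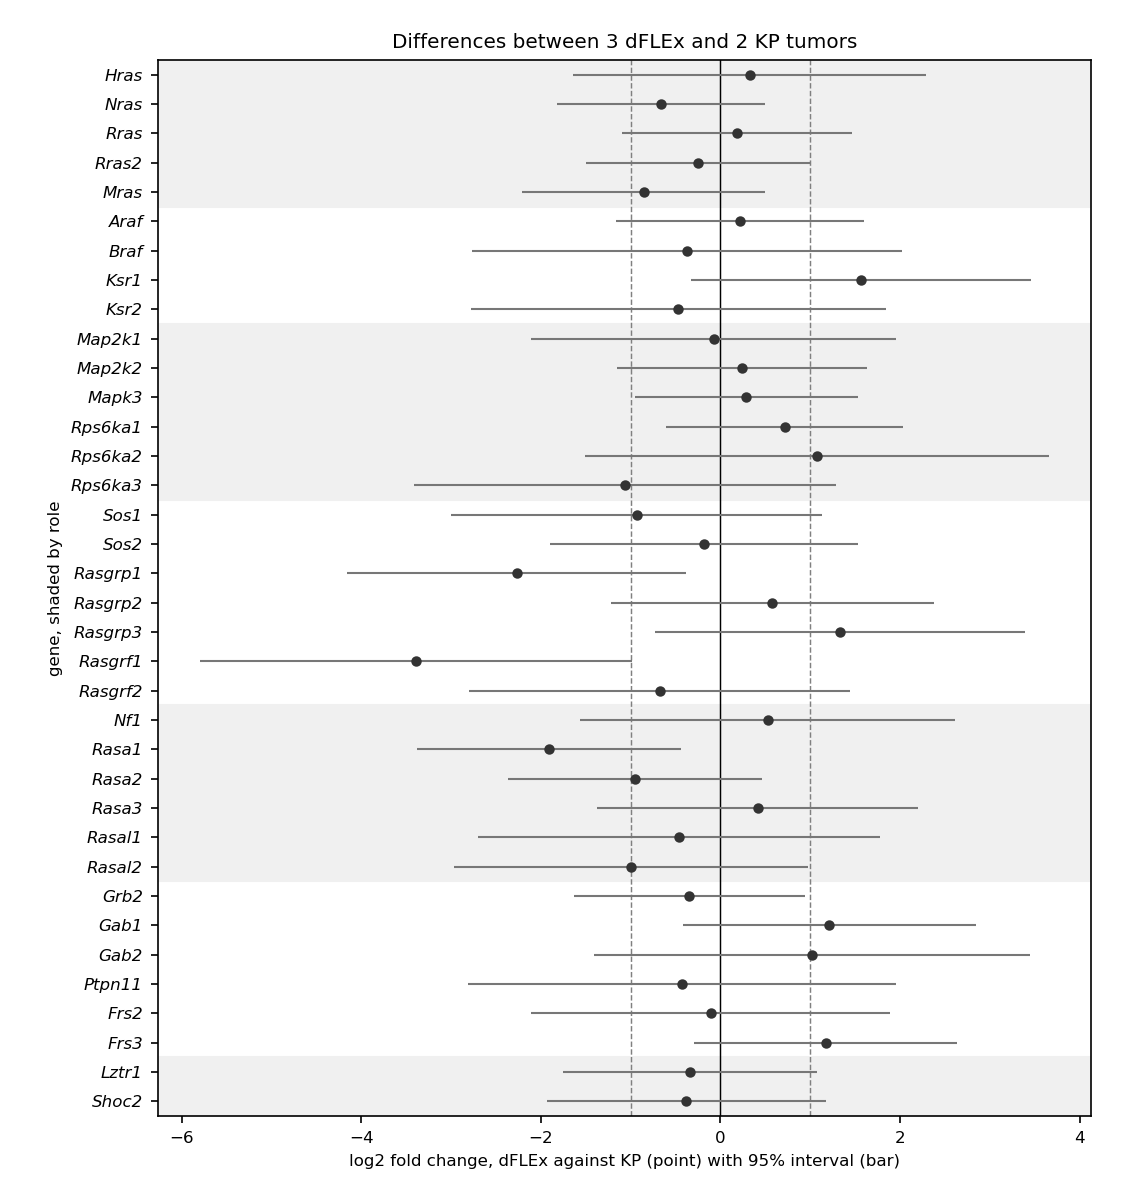
Log2 fold change of each member, dFLEx against KP tumors (points), with its 95% interval from edgeR (bars); dashed lines mark a 2-fold difference either way. The intervals of Rasgrp1, Rasgrf1 and Rasa1 lie below 0, before adjustment for the number of genes, and every interval crosses at least 1 dashed line.

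Among the RAS GTPases, Nras and Mras were lower in every dFLEx tumor than in either KP tumor, and Hras, Rras and Rras2 overlapped. Nras, a classical RAS gene, was at 147, 137 and 137 CPM in 170019, 170024 and 170025 and at 201 and 243 CPM in 3800 and 3802. Its dFLEx tumors were nearly equal, and its log2 fold change was -0.66 (SE 0.50, adjusted p = 0.811 by edgeR). Mras, whose product acts with SHOC2 in a phosphatase complex that helps to activate RAF, was at 15.9, 17.2 and 19.6 CPM in dFLEx and at 42.5 and 20.8 CPM in KP tumors. The lower KP value of Mras was close to the highest dFLEx value, and the log2 fold change was -0.85 (SE 0.59, adjusted p = 0.773 by edgeR). Hras varied mainly within the models, at 268, 217 and 83.6 CPM in dFLEx, and 43.6 and 259 CPM in KP tumors. Its tumors 170025 and 3800 were low and the other 3 were high, so that the range within each model spanned the difference between them (log2 fold change 0.33, SE 0.85). The R-RAS genes had smaller ranges, with Rras at 60.02 to 96.6 CPM in dFLEx and 55.0 to 81.2 CPM in KP tumors, and Rras2 at 41.0 to 55.0 CPM and 46.0 to 63.0 CPM.

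Of the RAF kinases, Araf was nearly constant among dFLEx tumors, at 62.9, 64.8 and 64.1 CPM, and lay between the KP values of 77.7 and 32.1 CPM. Braf, the RAF kinase with the highest basal activity, was at 3.21, 7.68 and 30.1 CPM in dFLEx and at 29.3 and 6.05 CPM in KP tumors. Its level in 170025 was thus close to that in 3800, and the other 3 tumors were lower (log2 fold change -0.37, SE 1.04). Ksr1, a scaffold that holds RAF, MEK and ERK together, had the largest positive log2 fold change of all members, 1.56 (SE 0.82, adjusted p = 0.614 by edgeR). It was at 9.80, 49.3 and 44.7 CPM in dFLEx and at 14.5 and 8.94 CPM in KP tumors. In Ksr1, 170024 and 170025 were high and 170019 lay between the KP tumors. Its paralog Ksr2 was low throughout, at 0.919 to 3.14 CPM in dFLEx and at 0.658 and 4.23 CPM in KP tumors, and in 170019, 170024 and 3802 it stood at under 5 times the receptor background for a gene of its length. In 3802, Braf and Rps6ka2 were also under 5 times that background.

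Both MEK genes overlapped between the models and differed in which tumors were high. Map2k1, encoding MEK1, was at 29.3, 46.7 and 103 CPM in dFLEx and at 108 and 17.2 CPM in KP tumors (log2 fold change -0.08, SE 0.88). Map2k2, encoding MEK2, was at 180, 252 and 121 CPM in dFLEx and at 105 and 207 CPM in KP tumors. As a result 170025 and 3800 were the 2 highest tumors for Map2k1 and the 2 lowest for Map2k2. Mapk3, encoding ERK1, was at 147, 147 and 140 CPM in dFLEx, within the KP values of 88.5 and 149 CPM. The RSK kinases, which ERK phosphorylates, differed among themselves. Rps6ka1 was higher in every dFLEx tumor, at 40.6, 45.0 and 67.9 CPM against 33.9 and 28.4 CPM, with a fitted log2 difference of 0.72 (SE 0.57, adjusted p = 0.827 by edgeR). Rps6ka2 ran from 15 to 107 CPM in dFLEx and stood at 49.4 and 4.55 CPM in KP tumors. Rps6ka3, one of the 4 members with the lowest log2 fold change, was at 6.69, 18.3 and 51.2 CPM in dFLEx and at 92.9 and 13.2 CPM in KP tumors. Its KP tumors differed from each other by more than the models did (log2 fold change -1.06, SE 1.02, adjusted p = 0.867 by edgeR).

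The exchange factors held the largest differences of the list, and these were in genes with restricted expression. Rasgrf1 (chr9:89791961-89909030, GRCm39), a calcium-responsive exchange factor best known from neurons, was at 0.547, 0.381 and 0.113 CPM in dFLEx and at 5.94 and 1.30 CPM in KP tumors. Both KP values exceeded all dFLEx values, and the log2 fold change was -3.39 (SE 1.04, adjusted p = 0.264 by edgeR). Against the receptor background for its length, however, Rasgrf1 stood at 86.0 times in 3800 but at 1.11 times in 3802 and at 2.08 to 3.71 times in the dFLEx tumors, so that it exceeded 5 times the background in 1 tumor. Of the 7 neuron markers, 3 were lower in every dFLEx tumor, and the list summed to 11.4 to 17.7 CPM in dFLEx and 152 to 525 CPM in KP tumors, mostly from Nefl and Nefm. The sum, like Rasgrf1, was highest in 3800, where Nefl was at 179 CPM, Nefm at 317 CPM and Tubb3 at 27.2 CPM. The other 4 markers, Snap25, Syt1, Rbfox3 and Elavl4, did not separate the groups and were each highest in 3802, and Elavl4 was at 0 in 170025. The part of neuronal RNA in the level of Rasgrf1 was not tested.

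Rasgrp1 (chr2:117110474-117173482), a diacylglycerol-responsive exchange factor known for its role in T cells, was at 0.498, 1.21 and 1.88 CPM in dFLEx and at 8.22 and 3.33 CPM in KP tumors. The groups did not overlap, and the log2 fold change was -2.27 (SE 0.82, adjusted p = 0.364 by edgeR). It stood at 235 times the receptor background in 3800 and at 5.597 times in 3802, and at 3.73, 14.5 and 121 times in 170019, 170024 and 170025. On this measure the groups overlapped, and Rasgrp1 was under 5 times the background in 170019. The 7 T cell markers summed to 13.97 to 23.1 CPM in dFLEx and to 16.9 and 60.4 CPM in 3800 and 3802, 3 of the 7 were lower in every dFLEx tumor, and none was at 0. In 3800, where Rasgrp1 was highest, the sum of T cell markers lay within the dFLEx range, as did that of the 5 B cell markers (3.69 to 6.81 CPM in dFLEx and 3.94 CPM in 3800, against 42.5 CPM in 3802). Single markers differed: Cd3d, Cd3g, Cd8a and Pax5 were above their dFLEx ranges in 3800. Cd3d was at 1.93 CPM there against 0.252 to 1.12 CPM, and Cd8a at 2.86 against 0.149 to 1.11 CPM. The other markers of both lists were within or below their dFLEx ranges in 3800. Among these was Lck, the largest term of the T cell sum in 3800 and in each dFLEx tumor, at 5.90 against 6.61 to 14.5 CPM. In 3802 the largest term was Cd3d, at 18.0 CPM.

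Rasgrp3, found in endothelial and B cells, had the opposite sign. It was at 14.6, 21.6 and 47.6 CPM in dFLEx and at 18.6 and 3.58 CPM in KP tumors, with a fitted log2 difference of 1.33 (SE 0.89, adjusted p = 0.765 by edgeR). The low value of 3802 stood apart from the other 4 tumors, and the log2 fold change was 3.14 without 3800 and 0.60 without 3802. The 8 endothelial markers summed to 384, 422 and 588 CPM in dFLEx and to 192 and 230 CPM in KP tumors, with 3 of the 8 higher in every dFLEx tumor and none at 0. Both the endothelial sum and Rasgrp3 were highest in 170025, whereas 3800 had the lowest endothelial sum and a Rasgrp3 level within the dFLEx range. The markers did not all follow the sum. Pecam1, Cdh5, Kdr and Tek were highest in 170025, but Emcn and Esam were highest in 170019 and Vwf in 3800. Cldn5 was highest in 3802, at 109 CPM, where Rasgrp3 was lowest. Rasgrp2, prominent in platelets, was at 8.74 to 14.3 CPM in dFLEx and at 2.53 and 11.9 CPM in KP tumors. The 5 platelet markers summed to 33.7 to 55.4 CPM in dFLEx and to 18.5 and 103 CPM in KP tumors. Of these, Gp1bb was at 0 in all 5 tumors and Gp9 at 0 in both KP tumors. The ubiquitous exchange factors overlapped, with Sos1 at 6.74 to 34.1 CPM in dFLEx and 12.4 to 54.2 CPM in KP tumors, and Sos2 at 7.99 to 26.8 CPM and 10.2 to 25.3 CPM. Rasgrf2 was at 0.423 to 1.39 CPM and 1.13 to 2.15 CPM. In 170019 and 3802 it stood at only 2.13 and 2.43 times the receptor background for its length.

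Of the GAPs, Rasa1 and Rasa2 were lower in every dFLEx tumor, and Nf1, Rasa3, Rasal1 and Rasal2 overlapped. Rasa1 (chr13:85362899-85437249), encoding p120 RasGAP, was at 26.7, 25.5 and 50.7 CPM in dFLEx and at 181 and 76.5 CPM in KP tumors. Every KP tumor was above every dFLEx tumor, and the log2 fold change was -1.91 (SE 0.64, adjusted p = 0.313 by edgeR), with a range of -2.38 to -0.99 when each tumor was left out in turn. Of the 3 members with an unadjusted p under 0.05, it was the 1 at over 5 times the receptor background in all 5 tumors, and the 1 called by both DESeq2 on tumor sums and limma-voom. Rasa2 was at 18.9, 12.1 and 26.8 CPM in dFLEx and at 46.4 and 28.0 CPM in KP tumors, its lower KP value lying just above the highest dFLEx value. Rasa3, a GAP known from platelets and blood vessels, was at 71.1, 102 and 224 CPM in dFLEx and at 155 and 42.9 CPM in KP tumors. Nf1, encoding neurofibromin, was at 27.2, 49.2 and 153 CPM in dFLEx and at 84.2 and 21.9 CPM in KP tumors (log2 fold change 0.53, SE 0.90). Both Rasa3 and Nf1 varied over 3-fold within each model, and their log2 fold changes turned negative when 170025 or 3802 was left out. Rasal2 was at 9.48 to 23.9 CPM in dFLEx and 7.96 to 50.4 CPM in KP tumors, and Rasal1 at 0.721 to 1.27 CPM and 0.510 to 2.28 CPM.

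Adaptors connect receptors to SOS and SHP2. Gab1 (chr8:81491067-81607148), a docking protein that recruits SHP2, was at 29.4, 41.0 and 78.3 CPM in dFLEx and at 29.4 and 13.3 CPM in KP tumors. It counted among the 3 members higher in every dFLEx tumor by a margin of under 1% between 170019 and 3800 (log2 fold change 1.21, SE 0.70, adjusted p = 0.679 by edgeR). Its paralog Gab2 ran from 3.83 to 53.9 CPM in dFLEx and from 7.19 to 17.0 CPM in KP tumors. Frs3 (chr17:47999955-48015211), an adaptor of FGF and neurotrophin receptors, was at 7.96, 8.70 and 5.64 CPM in dFLEx and at 2.7 and 3.90 CPM in KP tumors. The groups did not overlap, and the log2 fold change was 1.17 (SE 0.63, adjusted p = 0.631 by edgeR). Its paralog Frs2 overlapped, at 9.85 to 45.1 CPM and 10.7 to 39.4 CPM. Grb2, which couples receptors to SOS and was one of the 2 members with a CIC octamer, was at 84.2, 107 and 135 CPM in dFLEx and at 175 and 101 CPM in KP tumors (log2 fold change -0.35, SE 0.55). Ptpn11, encoding SHP2, was at 23.5, 56.7 and 162 CPM in dFLEx and at 195 and 23.0 CPM in KP tumors, a spread of over 6-fold within each model with almost the same lowest value in both. Lztr1, part of a ubiquitin ligase that lowers RAS proteins, was at 58.1 to 94.5 CPM in dFLEx and 54.6 to 140 CPM in KP tumors. Shoc2, the scaffold of the RAF-activating phosphatase complex, was at 31.5 to 64.3 CPM and 29.1 to 85.1 CPM.

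Related genes were next compared with each other within a tumor, as shares of CPM per kilobase of gene length. In the Rasgrp set, Rasgrp1 held 2.37%, 4.65% and 3.65% of the sum of Rasgrp1 to Rasgrp3 in 170019, 170024 and 170025, and 30.2% and 27.4% in 3800 and 3802. The 2 KP tumors were thus close on this share although their Rasgrp1 levels differed, while Rasgrp2 made up 4.20% of the set in 3800 and 44.4% in 3802. In 3802, however, Rasgrp1 and Rasgrp3 were at 0.595 and 0.612 CPM per kilobase, against a receptor background of 0.106. In 170019, Rasgrp1 was at 3.73 times the background. No background was subtracted, so the shares in these tumors rest on levels near it. Rasgrp3 held 66.9% to 88.7% in dFLEx and 28.2% to 65.6% in KP tumors. Among Rasa1 to Rasa3, Rasa1 held 19.4%, 14.4% and 13.2% in dFLEx and 42.5% and 50.6% in KP tumors, and Rasa3 held 74.3% to 83.6% and 40.8% to 52.5%. The groups were therefore separated on the balance of Rasa1 to Rasa3, whose gene lengths are 7320 and 5095 bases, and the share of Rasa1 was 14.01% to 20.1% in dFLEx and 35.1% to 50.2% in KP tumors with the trend of each tumor with GC content and length removed. With the same removal, Rasgrp1 held 2.26% to 4.61% and 27.7% to 31.3%, whereas the ranges of Rasgrp3, 60.1% to 90.1% and 28.1% to 64.9%, came to overlap. Rras held 77.5% to 85.3% of the R-RAS set in dFLEx and 69.8% to 76.9% in KP tumors, and Rras2 held 11.4% to 17.9% and 18.4% to 18.8%. The gene lengths of Rras, Rras2 and Mras are 1121, 3554 and 5134 bases. After the same removal, the CPM of Rras2, not divided by gene length, was above that of Rras in 170019 (58.4 against 45.5 CPM) and 3802 (82.3 against 73.1 CPM). It was below that of Rras in 170024, 170025 and 3800, so the balance of Rras2 to Rras then did not separate the models. Since Rras2 is the longer gene, these CPM values do not show which of them was more abundant. Division by length would scale the balance equally in every tumor. The shares of Hras, Araf, Map2k1, Sos1 and the 3 RSK genes in their sets overlapped between the models. Map2k1, for example, made up 21.4%, 23.6% and 58.5% of both MEK genes in dFLEx and 63.3% and 12.2% in KP tumors. The shares were not tested, and the shares within a set depend on each other.

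**Figure D3:**
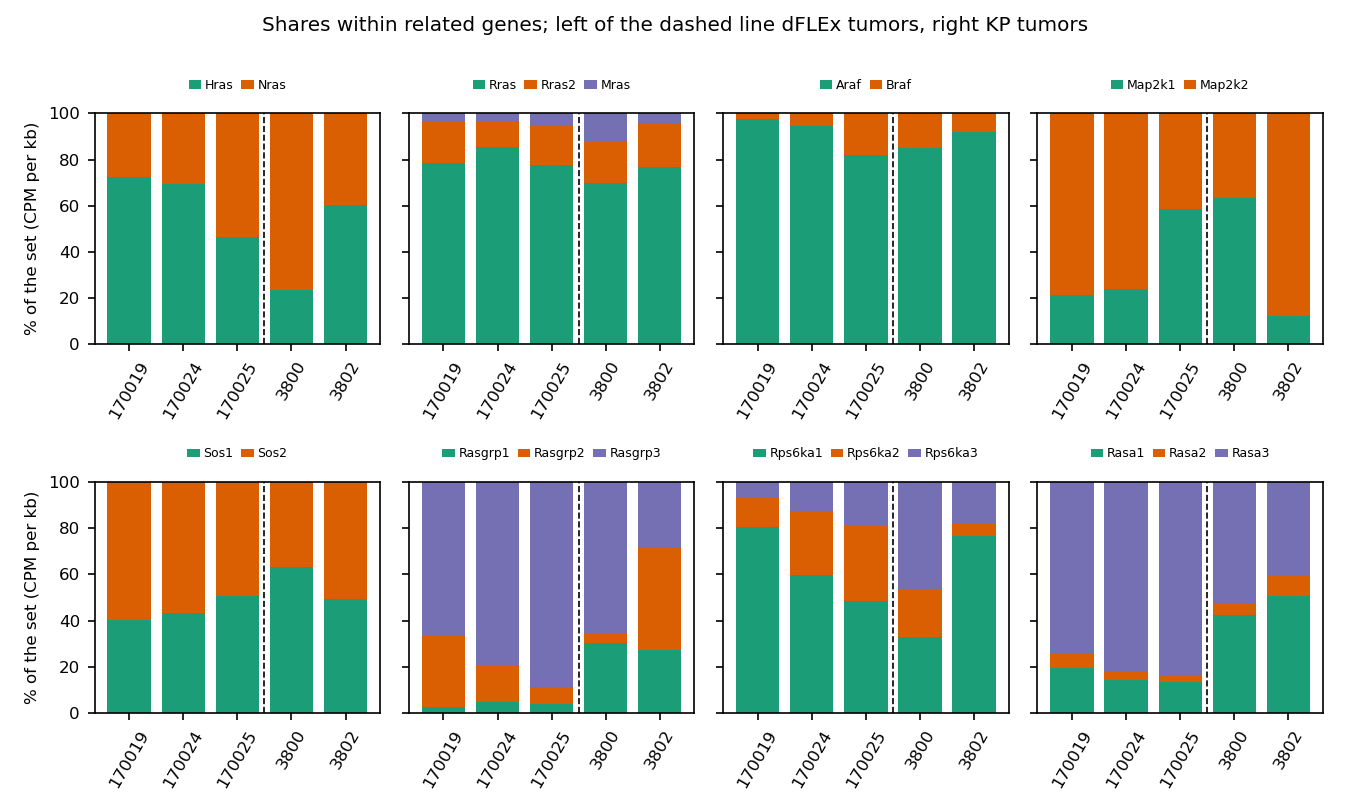
Share of each gene in its set of related genes, in percent of the summed CPM per kilobase, for each tumor (bars; dFLEx to the left and KP to the right of the dashed line). The Rasgrp1 and Rasa1 segments are larger in both KP tumors than in any dFLEx tumor, whereas the Map2k1 and Hras segments vary within both models.

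Across the list, tumors of 1 model differed from each other in a shared direction. Tumor 170025 was the highest dFLEx tumor in 25 of the 36 members (69.4%, against 53.1% of 15219 genes averaging 1 CPM or more), and 3800 was above 3802 in 25 (69.4%, against 64.1%). The median log2 ratio of 170025 to 170019 was 1.18 over the members and 0.46 over all those genes, and that of 3800 to 3802 was 1.24 and 0.62. Ptpn11, Rps6ka2, Rps6ka3 and Braf had among the largest ratios in both pairs, and Hras, Map2k2 and Rasgrp2 ran the other way in both. Across the 36 members, Spearman's rho of the ratio with gene length was 0.40 for 170025 to 170019 and 0.38 for 3800 to 3802, and over all genes 0.53 and 0.35. With GC content rho was -0.36 and -0.43 over the members, but -0.07 and -0.16 over all genes. Over 42 other RAS pathway genes it was 0.25 and -0.01. Longer and more AT-rich members thus tended to be higher in 170025 and 3800, while the trend with GC content was weak or absent outside the members. These are descriptions across genes, which share libraries and are not independent replicates.

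**Figure D4:**
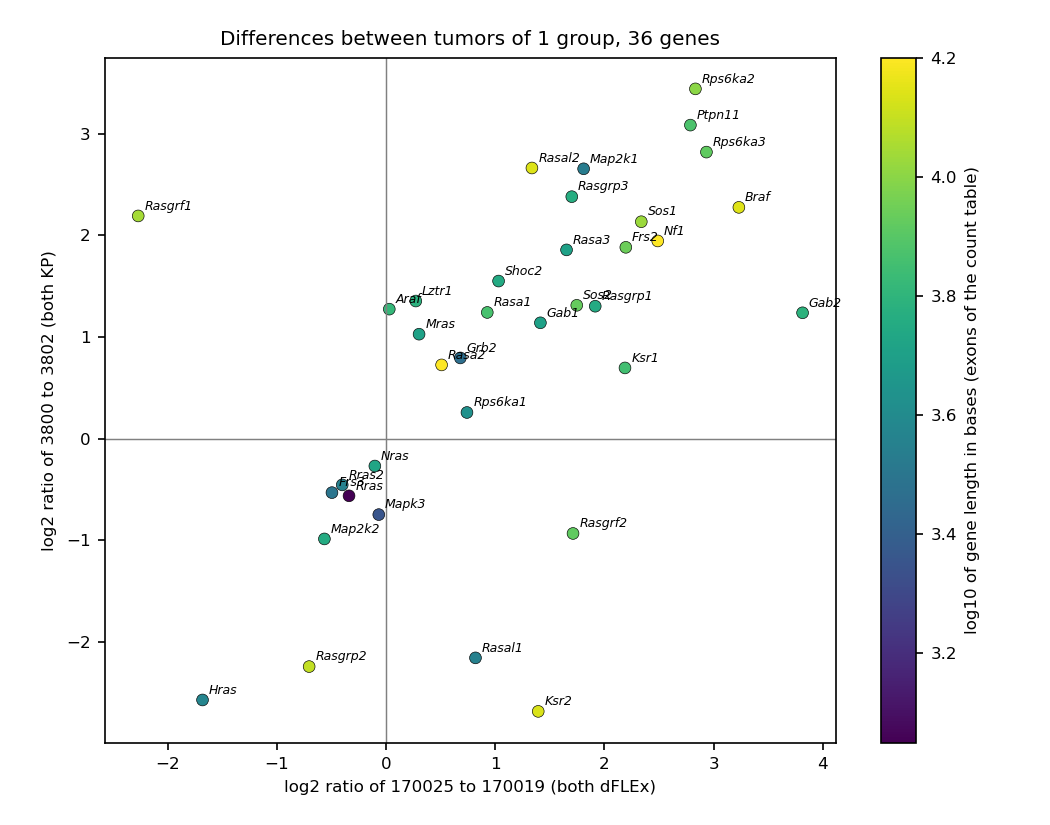
Log2 ratio of 170025 to 170019 (x axis) against that of 3800 to 3802 (y axis) for the 36 members, colored by gene length on a log scale. Most members lie in the upper right, including Ptpn11, Rps6ka3 and Braf, while Hras lies at the lower left and Rasgrf1 at the upper left.

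With the trend of each tumor with GC content and length removed, the median fold range of a member among dFLEx tumors decreased from 2.89 to 1.96 and that between KP tumors from 2.52 to 2.05, and the number of members called stayed at 0. Members higher in every dFLEx tumor then numbered 4 (Ksr1, Rps6ka1, Rasgrp3 and Gab1), and those lower again 6 (Mras, Rasgrp1, Rasgrf1, Rasa1, Rasa2 and Grb2). The share over all genes after the removal is not given here, so these numbers cannot be read as a trait of the members. Nras and Frs3, separated as measured, overlapped after the removal. Araf and Nras, nearly constant among dFLEx tumors as measured, then ran from 45.5 to 84.9 CPM and from 107 to 180 CPM among them. Rasa1 was at 34.9, 30.4 and 38.3 CPM in dFLEx and 118 and 100.01 CPM in KP tumors after this removal. The signs of many members depended on tumor 3800. Without 3800, the median log2 fold change of the members was 0.72, and 13 of the 36 changed sign, among them Braf, Map2k1, Rps6ka3, Sos1 and Ptpn11. No value over all genes is set beside these, and 3800 was above 3802 in 64.1% of 15219 genes, so they do not show a trait of the list. The sign stayed the same whichever tumor was left out in 15 members, among them Ksr1, Gab1, Rasgrp3, Frs3, Rasgrf1, Rasgrp1, Rasa1, Rasa2, Nras and Mras.

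Per kilobase of gene length, on which different genes can be compared, Rras and Mapk3 were the 2 most abundant members in both models (means of 69.2 and 64.1 CPM per kilobase in dFLEx and of 60.8 and 52.5 in KP tumors). Grb2, Hras, Map2k2 and Nras filled ranks 3 to 6 in both, and within each model the tumor ranges of neighbours in this order overlapped. The ranges of Grb2 and Nras did not overlap in dFLEx, nor did those of Nras and Map2k2 in KP tumors. The lowest places were held by Rasgrf1, Rasgrf2, Ksr2, Rasgrp1 and Rasal1 in dFLEx tumors. The clearest move in rank was that of Rasa1, from 20 in dFLEx to 9 in KP tumors, and that of Ksr1, from 17 to 28.

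A list of 45 other genes of the RAS pathway gave no call either. Of the 43 tested, 9 had an unadjusted p under 0.05 (20.9%, against 10.6% of all genes), 7 were higher in every dFLEx tumor (16.3%, against 13.7%) and 4 lower (9.30%, against 11.7%), and the median log2 fold change was 0.10. DESeq2 on tumor sums called 5 of them (11.6%, against 6.13%), 4 higher and 1 lower in dFLEx. Rasd2, a RAS-like GTPase also known as Rhes, was at 15.7, 44.9 and 133 CPM in dFLEx and at 0.349 and 1.06 CPM in KP tumors (log2 fold change 6.56, SE 1.28, adjusted p = 0.109 by edgeR). Rasl11b, another RAS-like GTPase, was at 36.4, 28.9 and 33.1 CPM in dFLEx and at 4.50 and 4.27 CPM in KP tumors (log2 fold change 2.90, SE 0.62, adjusted p = 0.123 by edgeR), with little spread within either model. Rasal3, a GAP of blood cells, was lower in every dFLEx tumor (0.473, 0.988 and 1.40 CPM against 5.62 and 3.25 CPM), as were 2 of the members in its class. Rin1, a RAS effector, was lower in dFLEx by fit, with -3.62 on the log2 scale (SE 1.16, adjusted p = 0.292 by edgeR), which rested on 3800 at 75.9 CPM, while 3802 at 4.71 CPM lay within the dFLEx range of 1.04 to 5.98 CPM.

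The 17 ERK output genes, several of which the study chose on these tumors so that their direction is no independent evidence, had a median log2 fold change of 1.51, beside -0.22 for the cascade. None of the 17 was called by edgeR, 8 had an unadjusted p under 0.05 (47.1%, against 10.6% of all genes), and DESeq2 on tumor sums called 6 (35.3%, against 6.13%). Of the 17, 8 were higher (47.1%, against 13.7%) and 1 lower (5.88%, against 11.7%) in every dFLEx tumor. Etv4, an ETS factor and CIC target, was at 4211, 3732 and 2724 CPM in dFLEx and at 117 and 180 CPM in KP tumors (log2 fold change 4.58, SE 0.64, adjusted p = 0.0517 by edgeR). Spred3 was at 108, 142 and 396 CPM in dFLEx and at 16.4 and 10.1 CPM in KP tumors. Dusp5, a nuclear ERK phosphatase, was lower in every dFLEx tumor, at 6.89, 10.2 and 11.2 CPM against 58.5 and 40.5 CPM (log2 fold change -2.39, SE 0.58, adjusted p = 0.166 by edgeR). Fosl1, an AP-1 gene, had a fitted log2 difference of -2.54 (SE 1.5, edgeR adjusted p = 0.693) and was at 0.920 to 9.35 CPM in dFLEx and at 47.2 and 0.528 CPM in KP tumors.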

How the data were processed

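Bulk RNA-seq of 3 dFLEx CDS and 2 KP sarcomas was analysed; RNA of each tumor was split into duplicates for paired-end libraries depleted of ribosomal RNA. The authors trimmed reads with Trimmomatic (version 0.39), aligned them with STAR (version 2.7.10a) to GRCm39 with a CIC::DUX4 contig, and deposited raw counts per gene from featureCounts (Subread version 2.0.3). Per the file headers, counting ignored strand, counted each mate as a read and left out reads with several alignments or over several genes, so paralogs and overlapping genes lose reads. Tumor totals were 20503474 to 82138251 counts, and reads are not independent molecules. An allele of the KP genotype and some genes of the cascade are not reported here.

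Counts were summed per tumor, filtered with filterByExpr, scaled by TMM and tested by the quasi-likelihood method of edgeR (version 4.0.16), the p-values of all genes tested being adjusted by Benjamini-Hochberg and called under 0.05. SE is the absolute log2 fold change over the square root of F. The tumor is the replicate, and p-values set the difference between the models against the spread between these tumors. Symbols came from GENCODE (56017 of 56750 features), promoter windows from RefSeq. Alternatives used DESeq2 (version 1.42.0), limma-voom (version 3.58.1), other scalings and filters, single libraries and each tumor left out; a loess correction (span 0.3) for GC content and gene length within each tumor was added once the data had been seen. The members and lists were chosen with earlier results of these data known. Given in full were the 4 highest and 4 lowest log2 fold changes of members averaging 1 CPM or more, and members without overlap whose log2 fold change was at least 1 in size; for the other pathway and ERK output lists, the 2 largest and 2 smallest. Rasa2, Nras, Mras, Hras and other members were described by role.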

Additional observations from a re-analysis of the deposited data

How the results depend on the processing

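With 1 of the 5 tumors left out, with other scalings, with other filters and with 1 library per tumor, no member was called by edgeR on tumor sums; calls appeared with other units of replication or another tool. Numbers of calls are given for all genes, members, other RAS pathway genes and ERK output genes in this order, beside 45, 0, 0 and 0 as reported. They were 3344, 6, 10 and 8 with 9 libraries as independent samples in edgeR, 5042, 12, 12 and 11 in DESeq2, 543, 1, 1 and 6 in limma-voom with a random term for tumor, and 1516, 2, 5 and 6 with DESeq2 on tumor sums. With a replicate block by duplicate number on the 9 libraries they were 2476, 4, 8 and 8; the deviations of same-numbered duplicates correlated between tumors at -0.032 to 0.146, so the numbers do not pair libraries. No filter on low counts gave 880, 0, 3 and 5, a mean of at least 1 CPM gave 80, 0, 0 and 0, and removal of the GC and length trend, chosen after the data were seen, gave 191, 0, 0 and 5. Leaving out a tumor gave 0 to 414 calls over all genes, 0 to 1 among other RAS pathway genes and 0 to 1 among ERK output genes, the highest in each case without 3802, and 0 over all genes without 170019 or 170024. The causes were not tested.

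The members' median log2 fold change was -0.49 to -0.04 under the other scalings, filters, tools and units, and -0.60 to 0.72 with a tumor left out. Single genes that turned sign were the following. In limma-voom, Ksr2 was at 0.28, Map2k1 at 0.11 and Rasal1 at 1.41. With library totals, Hras was at -0.061, Rras at -0.13, Araf at -0.040, Map2k2 at -0.088 and Mapk3 at -0.034. With upper quartile scaling, Hras was at -0.067, Rras at -0.075, Map2k2 at -0.067 and Mapk3 at -0.023, and with a mean of at least 1 CPM, Rras was at -0.012. With the GC and length trend removed, Hras was at -0.22, Rras at -0.22, Map2k2 at -0.27, Mapk3 at -0.26 and Frs2 at 0.037. With each tumor left out in turn, the log2 fold changes that turned sign ran from -0.29 to 2.14 for Hras, -1.70 to 1.36 for Braf, -0.85 to 1.97 for Map2k1, -0.82 to 0.79 for Sos2, -1.43 to 1.99 for Ptpn11, -1.02 to 1.30 for Frs2, -0.011 to 0.51 for Rras, -0.065 to 0.83 for Map2k2, -0.47 to 1.98 for Nf1, -0.22 to 1.80 for Rasa3, -0.30 to 1.95 for Gab2, -2.08 to 1.12 for Rps6ka3, -1.87 to 0.67 for Sos1, -1.77 to 1.05 for Rasal2, -0.67 to 0.27 for Grb2, -0.84 to 0.66 for Lztr1, -0.94 to 0.76 for Shoc2, -3.99 to 3.14 for Fosl1, -0.46 to 0.016 for Rras2, -0.26 to 1.15 for Araf, -1.23 to 1.43 for Ksr2 and -1.01 to 0.99 for Rasal1.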
